A study of Mus musculus with 6 samples.

Results

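The genes described here are the leptin receptor, the kinase and transcription factors that it signals through, and the proteins that damp or share that signal. They are Lepr, Jak2, Stat3, Stat5a, Stat5b, Socs3, Ptpn1, Ptpn2, Sh2b1 and Il6st, 10 of the 22322 genes in the deposited table, and were found by matching its Ensembl identifiers to these symbols. All 10 had enough reads to be tested, with 22 to 2918 counts per sample. Leptin is a hormone released by fat tissue. In the arcuate nucleus (ARC) at the base of the hypothalamus it binds the long form of its receptor, JAK2 on that receptor becomes active, and phosphorylated STAT3 and STAT5 enter the nucleus and switch on genes. One gene switched on in this way is Socs3, whose protein binds the receptor and JAK2 and shuts the signal down, while the phosphatases encoded by Ptpn1 and Ptpn2 remove phosphate from JAK2 and STAT3.

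RNA was sequenced from ARC tissue that had been cut with a laser from brain sections of 20 µm (laser capture microdissection, LCM). The male mice were fed normal chow (NCD), with 16.5% fat, or a high-fat diet (HFD), with 60% fat, for 16 weeks from 4 weeks of age. The study names C57BL/6J as its wild-type stock and also used Kiss1-Cre mice crossed to a fluorescent reporter to see Kiss1 neurons, and the genotype of these samples is not given in the sources used here. There were 3 samples per diet, called NCD1 to NCD3 and HFD1 to HFD3 here. How many mice went into each sample is not given in the sources used here, so the p-values measure only the spread between these samples. The comparison asked how the diet moved gene expression in the ARC, and it measures RNA, not the protein or its phosphorylation through which this pathway is switched on.

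The libraries held 15925648, 9937632 and 6882449 counts for NCD1, NCD2 and NCD3, and 8024664, 10479778 and 5171381 counts for HFD1, HFD2 and HFD3. A count of 3, taken as the smallest detectable amount, was worth between 0.180 CPM in NCD1 and 0.564 CPM in HFD3, which covers counting error only (CPM are counts scaled to the size of the library). All 14 ARC neuron markers were tested, led by Pomc at a mean of 672 CPM and Npy at 215 CPM. Kiss1, for whose neurons the study chose this region, had 0 counts in NCD1 and HFD1, which allows up to 0.180 CPM and 0.372 CPM there. It had 27 counts in NCD2, 32 in NCD3, 21 in HFD2 and 42 in HFD3. HFD3, the smallest library, was also the highest of the 6 in tanycyte markers, with a summed level of 456 CPM against 171 to 316 CPM in the others, and in Cga, the hormone subunit gene of the neighbouring pars tuberalis, with 47.9 CPM against 4.17 to 14.9 CPM. Each of the 6 samples was left out in turn, and values without HFD3 are given for several genes and lists. The share of all genes with an unadjusted edgeR p under 0.05 was 2.3% with all 6 samples. It was 8.13% without NCD3 and 1.94% without HFD3.

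Of these genes Socs3 differed most between the diets, and for the other 9 the interval of the fold change included 0. The HFD samples had a mean of 9.16 ± 3.20 CPM of Socs3 and the NCD samples 4.27 ± 1.18 CPM (SD, n = 3 each), a ratio of 2.11 in the fit. This difference did not pass the threshold once all 14188 genes were taken into account (edgeR quasi-likelihood test, adjusted p = 0.999).

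Socs3 (ENSMUSG00000053113) lies on the minus strand at chr11:117966079-117970047 of GRCm38. This span includes noncoding transcripts, one of which starts further upstream, while the protein-coding transcript Socs3-201 starts at 117969186. The stretch shown lies before the RefSeq start of the gene and in an intron of the longest noncoding transcript, and is printed because STAT dimers recognise the letters TTCNNNGAA, which read the same on both strands. It holds one match, in capitals.

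Socs3, chr11:117969452-117969616, minus strand, GRCm38.p6: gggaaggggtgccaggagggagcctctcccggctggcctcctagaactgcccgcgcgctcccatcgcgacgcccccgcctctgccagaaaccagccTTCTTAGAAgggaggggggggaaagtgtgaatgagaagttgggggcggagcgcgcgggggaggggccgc

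These 165 bases come from the RefSeq promoter window and stop before an exon of a noncoding Socs3 transcript. The match at 117969512 to 117969520 ends 146 bases before the RefSeq start of the gene and 326 bases before that of Socs3-201. The same letters were searched in the 250 bases before the start in each RefSeq window, and stood there in 2306 of 32851 windows (7.02%), in none of the 3 windows found for other SOCS genes, and in 1 of the 13 windows of 9 of the 10 genes described here, which is the one of Socs3. For Socs3 the bases between the RefSeq start at 117969366 and the start of Socs3-201 at 117969186 were not searched. Matches nearer to the coding transcript would therefore not have been seen. Such a match is a description of the sequence, and no binding was measured.

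Per length, the genes spanned from Stat3, the main transcription factor of leptin signalling, down to the receptor itself and Stat5a. Mean FPKM over the 6 samples (fragments per kilobase scaled to the depth of the library, as deposited) was 31.5 for Stat3, 14.9 for Sh2b1, 14.6 for Il6st, 13.6 for Ptpn2, 10.8 for Stat5b, 8.49 for Ptpn1, 5.50 for Jak2, 2.64 for Socs3, 1.81 for Lepr and 1.29 for Stat5a. Stat3 stood at the 79.2 percentile of the genes tested by this measure, Socs3 at the 21.5, Lepr at the 15.4 and Stat5a at the 10.9. Of the 9 neighbouring pairs in this order, the sample ranges were apart in 2, Stat3 above Sh2b1 and Ptpn1 above Jak2. Jak2 was above Socs3 in 6 of 6 samples although their ranges touched across samples, since Socs3 in HFD3 reached 5.0 FPKM and Jak2 in HFD2 was 4.50 FPKM. Socs3 was above Lepr in 4 of 6 samples and Lepr above Stat5a in 5 of 6. Levels from ARC tissue are averages over neurons, glia and vessels, so fewer cells that use a gene and less RNA per cell cannot be told apart.

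**Figure D1:**
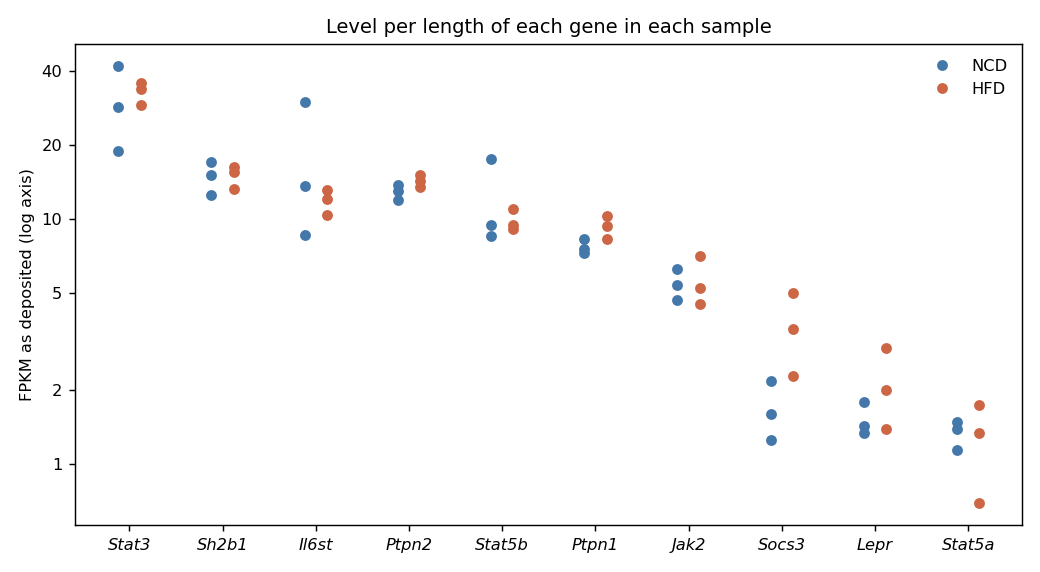
FPKM as deposited on a log axis for each gene, with one point per sample, NCD in blue and HFD in orange. Stat3 lies at 18.9 to 42.2 FPKM above all others except for 1 Il6st value, and Socs3, Lepr and Stat5a lie at or below 5.0 FPKM.

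Lepr, the leptin receptor (ENSMUSG00000057722, chr4:101717404-101815352, plus strand), was covered by few reads. NCD1, NCD2 and NCD3 had 141, 70 and 48 counts, or 8.48, 7.12 and 7.21 CPM. HFD1, HFD2 and HFD3 had 72, 62 and 70 counts, or 8.94, 6.10 and 13.2 CPM. The diets overlapped, with the lowest and the highest sample both on HFD. The log2 fold change of HFD against NCD was 0.28 (SE 0.33, 95% interval -0.43 to 0.99, edgeR adjusted p = 0.999), and without HFD3 it was -0.03. The annotation lists 4 protein-coding transcripts of Lepr, with coding lengths of 1162, 894, 892 and 30 codons. The first encodes the long, signalling form, and the gene counts do not separate it from the short forms. Leprot, the neighbouring gene whose product holds the receptor inside the cell, had 33.9, 33.3 and 30.5 CPM on NCD and 34.6, 36.4 and 35.1 CPM on HFD. These ranges did not overlap, but the log2 fold change was only 0.12 (SE 0.19). With the counts of both genes summed it was 0.15 (SE 0.19, 95% interval -0.26 to 0.57).

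Il6st encodes gp130, the signalling chain of the receptors for IL-6, LIF and CNTF, which use the same kinases and STAT3 and are also shut off by SOCS3 (ENSMUSG00000021756, chr13:112464070-112510086, plus strand). It had 118, 81.0 and 59.1 CPM in NCD1, NCD2 and NCD3. It had 72.5, 82.5 and 76.5 CPM in HFD1, HFD2 and HFD3. The NCD samples surrounded the HFD samples, and the log2 fold change was -0.16 (SE 0.24, 95% interval -0.69 to 0.37).

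Jak2, the kinase bound to the receptor (ENSMUSG00000024789, chr19:29251828-29313080, plus strand), gave nearly the same values on both diets. It had 25.6, 23.3 and 32.2 CPM on NCD and 26.1, 23.3 and 33.8 CPM on HFD, with a log2 fold change of 0.04 (SE 0.23, 95% interval -0.46 to 0.54). Sh2b1, an adaptor that binds JAK2 and raises its activity (ENSMUSG00000030733, chr7:126466994-126475424, minus strand), had 47.4, 44.1 and 37.9 CPM on NCD and 46.3, 39.0 and 40.8 CPM on HFD. Its log2 fold change was -0.04 (SE 0.20, 95% interval -0.47 to 0.39). The intervals of both genes stay under a change of 1.5-fold in either direction.

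The 3 STAT genes lie side by side on chromosome 11, Stat5b at chr11:100780731-100850724 and Stat3 at chr11:100885098-100939540 on the minus strand, with Stat5a at chr11:100859351-100885169 on the plus strand between them. Stat3 (ENSMUSG00000004040) had 175, 129 and 87.9 CPM on NCD and 161, 155 and 128 CPM on HFD. The NCD samples again surrounded the HFD samples, and the log2 fold change was 0.18 (SE 0.25, 95% interval -0.37 to 0.72). Stat5b (ENSMUSG00000020919) had 85.6, 48.3 and 45.7 CPM on NCD and 55.1, 49.4 and 45.1 CPM on HFD, and its log2 fold change was -0.27 (SE 0.25, 95% interval -0.81 to 0.28). Stat5a (ENSMUSG00000004043) had 4.99, 5.59 and 4.21 CPM on NCD and 4.97, 2.76 and 6.01 CPM on HFD, and its log2 fold change was -0.13 (SE 0.38, 95% interval -0.96 to 0.70). Stat5a and Stat5b encode closely related proteins, and their counts summed as 1 gene gave -0.25 (SE 0.24, 95% interval -0.78 to 0.27). The ends of Stat5a and Stat3 overlap by 72 bases on opposite strands. Whether strand was used in counting is not given in the sources used here.

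NCD1, the deepest library, held the highest value of Stat3, Stat5b, Il6st and Sh2b1 among the 6 samples. With the log2 total count of each library as a further term, the log2 fold change of Stat3 was 0.49 (SE 0.18, edgeR adjusted p = 0.9998) and passed 0.05 before adjustment, while those of Stat5b and Il6st turned to 0.02 and 0.12. No alternative brought any of the 10 genes under an adjusted p of 0.05.

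Among the inhibitors Socs3, Ptpn1 and Ptpn2, Socs3 alone had an interval clear of 0. NCD1, NCD2 and NCD3 had 65, 55 and 22 counts of Socs3, or 3.91, 5.59 and 3.31 CPM. HFD1, HFD2 and HFD3 had 73, 61 and 66 counts, or 9.06, 6.01 and 12.4 CPM. Every HFD sample was above every NCD sample, but HFD2 and NCD2 were nearly level and HFD3 was the highest of all. The log2 fold change was 1.08 (SE 0.37, 95% interval 0.28 to 1.87), and its edgeR p was under 0.05 before adjustment, at rank 75 of the 14188 genes. The exact permutation test of the CPM values gave p = 0.1, the smallest that 3 samples against 3 allow. Without HFD3 the log2 fold change was 0.81 (SE 0.38), and edgeR's p was no longer under 0.05 before adjustment.

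Ptpn1, which encodes the phosphatase PTP1B (ENSMUSG00000027540, chr2:167932057-167979385, plus strand), also had all HFD samples above all NCD samples. It had 29.2, 35.3 and 32.8 CPM on NCD and 39.2, 35.8 and 42.1 CPM on HFD. The means were 32.4 ± 3.04 and 39.1 ± 3.13 CPM (SD, n = 3 each), and NCD2 and HFD2 were nearly level. The log2 fold change was 0.27 (SE 0.20, 95% interval -0.16 to 0.70). In FPKM the 2 closest samples changed places, with 8.29 in NCD2 and 8.24 in HFD2. Ptpn2, which encodes the related phosphatase TCPTP (ENSMUSG00000024539), had 22.7, 21.8 and 24.8 CPM on NCD and 24.5, 25.4 and 27.1 CPM on HFD. Its diets overlapped by NCD3 and HFD1, and the log2 fold change was 0.15 (SE 0.20, 95% interval -0.29 to 0.59).

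**Figure D2:**
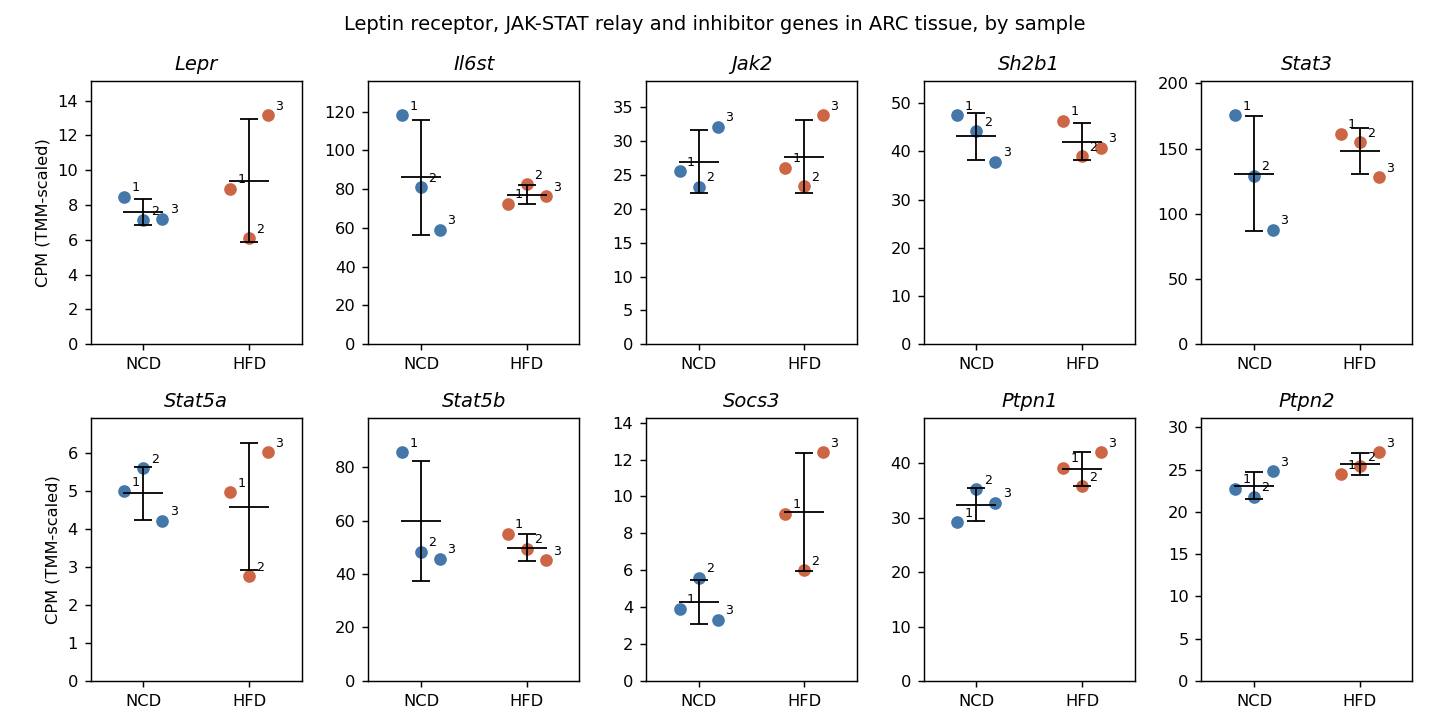
TMM-scaled CPM of each gene, with points for samples 1 to 3 of each diet, and the mean and SD in black on axes that start at 0. The HFD points of Socs3 (6.01 to 12.4 CPM) and Ptpn1 (35.8 to 42.1 CPM) lie above all NCD points, and the other 8 genes overlap.

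Across the 10 genes, 6 were higher and 4 lower on HFD, and the median log2 fold change was 0.09 against 0.003 for all genes tested. Without HFD3, 4 were higher and 6 lower, with a median of -0.023. None had an adjusted p under 0.05, where 0.0564% of all genes did. By the threshold the study used, an unadjusted p under 0.05 and a fold change above 1.5, 1 of the 10 passed, where 1.9% of all genes did. By p alone it was also 1 of 10, where 2.3% of all genes passed, and without HFD3 it was none. The samples of the diets did not overlap in 2 of the 10, both higher on HFD, where 6.47% of all genes were so separated in either direction and 3.24% in this one. The 10 genes were chosen with earlier results of these data known, so these shares are a description and not a test of the set.

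**Figure D3:**
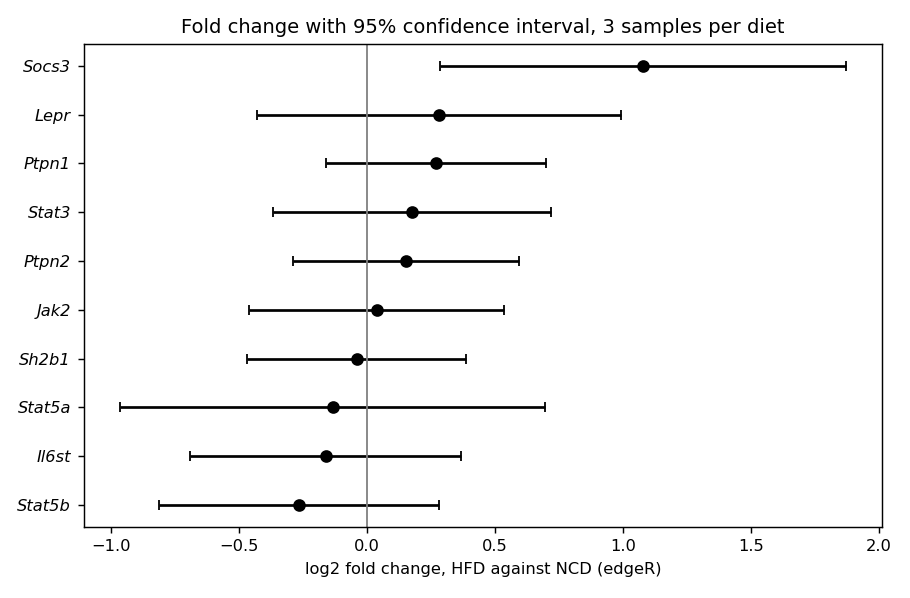
Log2 fold change of HFD against NCD from edgeR for each gene, with its 95% confidence interval. The interval of Socs3 (0.28 to 1.87) is clear of 0 without adjustment for the number of genes, and those of the other 9 genes include 0.

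The other SOCS genes, Cish, Socs1, Socs2 and Socs4 to Socs7, damp other cytokine and growth factor receptors, and all 7 were tested. All 7 overlapped between the diets, which is near the share over all genes, of which 6.47% did not overlap. Of them 5 were higher and 2 lower on HFD, with a median log2 fold change of 0.19, and none had an unadjusted edgeR p under 0.05, where 2.3% of all genes did. The median was 0.089 without NCD1. With the log2 total count as a further term it was 0.049, with 4 higher and 3 lower. Without NCD3 it was 0.28, and 1 gene was under 0.05, where 8.13% of all genes were. Cish and Socs2, known targets of STAT5, had log2 fold changes of 0.19 (SE 0.37) and 0.44 (SE 0.31). Socs1 had 5.47, 6.51 and 4.96 CPM on NCD and 6.21, 3.54 and 6.95 CPM on HFD. The most abundant were Socs5, with a mean of 107 CPM, and Socs7, with 39.1 CPM.

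The direction of the other JAK and STAT genes depended on single NCD samples. Of 7 genes 6 were tested, Stat4 being too low, and 3 were higher and 3 lower with a median of 0.00. Without NCD1, 6 were higher and none lower, with a median of 0.23, and without NCD2 1 was higher and 5 lower, with a median of -0.11. Jak1, at 183 CPM on average, was the most abundant. Among gp130 ligands and partner receptors, 8 of 13 were tested, with 5 higher, 3 lower, a median of 0.07 and none with an unadjusted edgeR p under 0.05, where 2.3% of all genes had one. Without HFD3 their median was -0.32. The ligand genes Il6, Il11, Lif, Osm and Clcf1 were too low to test, and Il6 had 3 counts in all 6 libraries together. The receptor genes Il11ra1, at 35.0 CPM, and Lifr, at 33.4 CPM, led the list.

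Of 18 adaptors and side branches of the leptin receptor tested, 11 were higher and 7 lower, with a median of 0.08. Without NCD1, 7 were higher and 11 lower, with a median of -0.038. Without HFD3, 9 were higher and 9 lower, with a median of -0.0016. None of the 18 had an unadjusted edgeR p under 0.05, which is near the 2.3% of all genes. Without NCD3, 2 were higher and 1 lower at that p, where 8.13% of all genes passed it. The replicate block and the fit without HFD2 each had 1. Irs4, an insulin receptor substrate of the hypothalamus, was among the most abundant at 151 CPM. Among 14 other inhibitors of JAK-STAT signalling, 7 were higher and 7 lower, with a median of 0.09. Without NCD1, 11 were higher and 3 lower, with a median of 0.23, and without HFD3 the median was -0.020. Pias1 and Pias2, which bind STAT proteins, led them at 91.9 and 60.8 CPM. Cav1, a coat protein of membrane caveolae and abundant in vessels, had 18.9, 17.7 and 16.2 CPM on NCD and 11.2, 13.2 and 4.89 CPM on HFD. Its log2 fold change was -0.83 (SE 0.32, 95% interval -1.53 to -0.13, edgeR adjusted p = 0.999), and without HFD3 it was -0.53. Cav1 alone of the 14 was under 0.05 before adjustment, where 2.3% of all genes were, but not without NCD1, NCD2 or HFD3.

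Genes known to be induced through STAT3 were mostly higher on HFD, with 1 exception that passed the test in the other direction. Of 22 genes 20 were tested, Lcn2 and Lrg1 being too low, and 17 were higher and 3 lower, with a median of 0.28 against 0.003 for all genes. Without HFD3, 14 were higher and 6 lower, with a median of 0.15, and with the log2 total count as a further term 12 were higher and 8 lower. Their summed level was 588, 651 and 512 CPM on NCD and 864, 658 and 756 CPM on HFD, without overlap (exact permutation test, p = 0.1, the smallest possible). HFD2 again lay next to NCD2. Without Gfap, a comparison chosen after the values were seen, it was 371, 444 and 429 CPM on NCD and 458, 330 and 559 CPM on HFD, so that the diets overlapped (p = 0.7 by the exact permutation test).

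Gfap, an intermediate filament of astrocytes and tanycytes, had 216, 207 and 83.0 CPM on NCD and 406, 328 and 197 CPM on HFD. Serpina3n, a protease inhibitor of reactive astrocytes, had 84.2, 77.1 and 61.5 CPM on NCD and 139, 83.5 and 184 CPM on HFD. These 2 genes had log2 fold changes of 0.88 (SE 0.35) and 0.86 (SE 0.27), which were under 0.05 before adjustment in edgeR and not after it (adjusted p = 0.999 for both). Of the 20 tested, 2 were higher and 1 lower at an unadjusted p under 0.05, where 2.3% of all genes passed it. Gfap was no longer under 0.05 before adjustment without NCD3, where its value was 0.56, or without HFD1 or HFD2, and Serpina3n was 0.58 without HFD3. Gfap overlapped between the diets and made up the largest share of the summed level. Junb fell, from 73.7, 127 and 94.7 CPM on NCD to 30.9, 25.3 and 31.9 CPM on HFD. Its log2 fold change was -1.74 (SE 0.24, edgeR adjusted p = 0.0136). Junb is an immediate early gene that neuronal activity also induces, and it was the only gene of these pathway lists past the adjusted threshold. With single samples left out its adjusted p ranged from 0.00555 to 0.137, over 0.05 without NCD2, HFD1, HFD2 or HFD3.

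Leptin-responsive peptide and receptor genes of the ARC showed both directions, with 9 of 16 higher and 7 lower and a median of 0.09. Pomc, the precursor of the appetite-lowering melanocortins, had 559, 1207 and 499 CPM on NCD and 555, 650 and 559 CPM on HFD. Agrp, whose product opposes the melanocortins, had 27.2, 29.4 and 61.6 CPM on NCD and 43.9, 39.4 and 87.2 CPM on HFD, and Npy gave a log2 fold change of 0.07 (SE 0.26). All of these overlapped between the diets.

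Cartpt, an appetite-lowering peptide made beside Pomc, was apart, with 395, 672 and 577 CPM on NCD and 903, 777 and 1077 CPM on HFD. Gal, the peptide galanin, had 143, 214 and 225 CPM on NCD and 341, 298 and 306 CPM on HFD. Mc3r, a melanocortin receptor, had 18.9, 19.1 and 17.4 CPM on NCD and 23.1, 26.3 and 28.9 CPM on HFD. In these 3 of 16 genes every HFD sample was above every NCD sample, where 3.24% of all genes were so separated. Pcsk1, an enzyme that cuts the POMC precursor, went the other way with 126, 88.3 and 82.5 CPM on NCD and 65.8, 80.9 and 53.0 CPM on HFD. The log2 fold changes of Cartpt, Gal, Mc3r and Pcsk1 were 0.75 (SE 0.25), 0.70 (SE 0.23), 0.49 (SE 0.21) and -0.57 (SE 0.23), each under 0.05 in edgeR before adjustment, where 2.3% of all genes were, and each with an adjusted p = 0.999. Cartpt and Gal stayed under 0.05 before adjustment in all 15 alternatives, whereas Mc3r did not in 9, among them every fit with 1 sample left out. Pcsk1 did not in 4, with -0.37 without NCD1. Tac2, which encodes the neurokinin B of ARC Kiss1 neurons, had a log2 fold change of 0.60 (SE 0.27, edgeR adjusted p = 0.999), and 0.40 without NCD1.

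**Figure D4:**
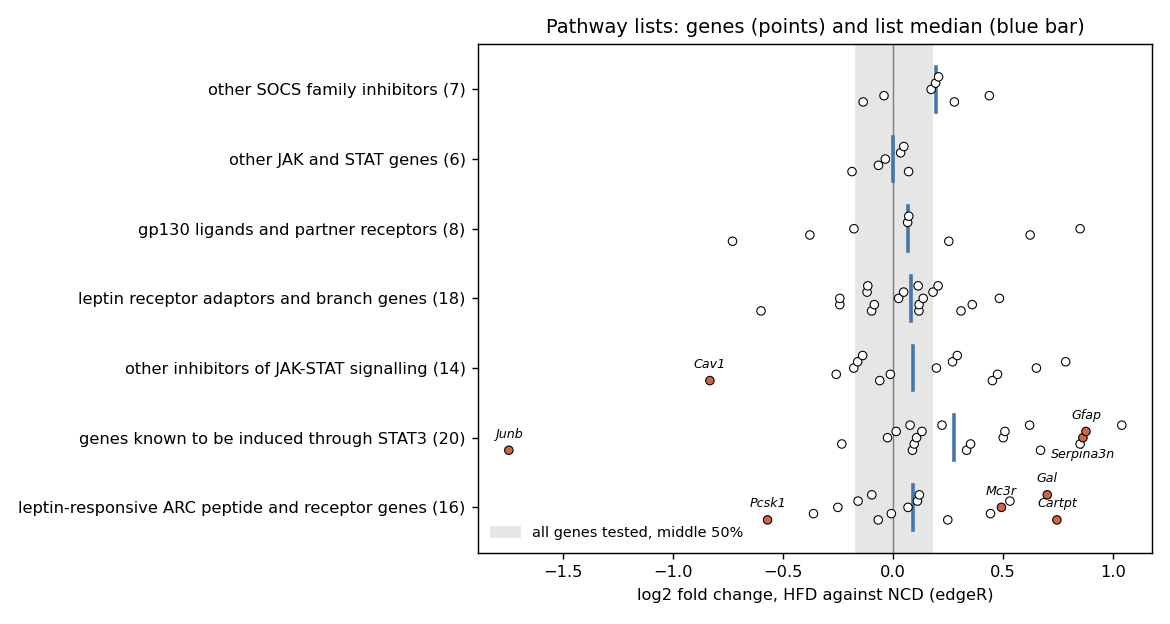
Log2 fold change of HFD against NCD for each gene tested in the 7 pathway lists, with the list median as a blue bar and the middle 50% of all genes (-0.17 to 0.18) in grey. Filled points have an unadjusted p under 0.05, and of them Junb alone passed after adjustment.

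Some microglial genes, but not all, were among those with a profile like that of Socs3. The microglia markers Tmem119 and P2ry12 were instead lowest in HFD3, at 21.6 and 22.7 CPM, where Socs3 was highest. The genes whose log2 CPM was most like that of Socs3 over the 6 samples were C1qa (Pearson r = 0.993), Ccnk (0.984), Lyz2 (0.981), C1qc (0.980) and Slc15a2 (0.974), out of 11897 others with a mean of at least 50 counts. C1qa and C1qc encode parts of complement C1q, which microglia make in brain, Lyz2 is a lysozyme of myeloid cells, Ccnk is cyclin K, and Slc15a2 is a peptide transporter. With 6 points that share library depth and tissue, such values are a description only. Ptpn1 ranked 42 by this measure (r = 0.922) and Lepr 617 (r = 0.683). The 5 genes most like Lepr were Crb2 (0.989), Zkscan2 (0.983), Mmp17 (0.983), Rxfp1 (0.980) and Slc16a9 (0.980), and Socs3 ranked 1252 among them.

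The 11 microglia markers had a summed level of 568, 608 and 498 CPM on NCD and 671, 659 and 674 CPM on HFD, without overlap (exact permutation test, p = 0.1, the smallest possible). Of them 7 were higher and 4 lower, with a median log2 fold change of 0.22. All 11 were higher without NCD1 (median 0.17) and with the log2 total count as a further term (median 0.17). Without HFD3, 10 were higher and 1 lower, and without NCD3, 6 were higher and 5 lower. The median was 0.37 without NCD2. Ctss, the most abundant at 146 CPM, C1qb and C1qa had log2 fold changes of 0.50 (SE 0.19), 0.44 (SE 0.18) and 0.46 (SE 0.21). These were under 0.05 in edgeR before adjustment only, where 2.3% of all genes were. Without NCD1, NCD3 or HFD1 none of the list was under 0.05, where 1.90%, 8.13% and 1.36% of all genes were, and C1qa was not in 10 of 15 alternatives. The defining microglial genes Cx3cr1, P2ry12 and Tmem119, which encode a chemokine receptor, a purine receptor and a membrane protein, had log2 fold changes of -0.12, -0.07 and -0.00. None of the 11 was at 0.

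Tanycytes line the third ventricle beside the ARC. All 12 of their markers were higher on HFD, with a median of 0.44, but without HFD3 8 were higher and 4 lower, with a median of 0.15. Their summed level was 233, 171 and 268 CPM on NCD and 316, 201 and 456 CPM on HFD, so the diets overlapped. Col23a1, at 56.4 CPM, and Crym had log2 fold changes of 0.91 (SE 0.40) and 0.89 (SE 0.30). These 2 of the 12 were under 0.05 in edgeR before adjustment only, where 2.3% of all genes were. Gpr50, at 57.1 CPM, was the most abundant. Col23a1 was 0.27 without HFD3 and 0.28 with the log2 total count as a further term, neither of them under 0.05, and Crym was 0.77 without HFD3 and not under 0.05 without NCD2 or HFD1. The order of the HFD samples, HFD3, HFD1 and then HFD2, was the same in Socs3, Lepr and Ptpn1 and in several summed levels. Among these were the tanycyte, microglia, ARC neuron and other SOCS sums, the last with 261, 247 and 202 CPM. This order runs from the smallest to the largest HFD library. In the means of log2 deviations it differed. There HFD2 was the highest HFD sample for microglia markers (0.114), and it was above HFD1 for ARC neuron markers (-0.111 against -0.215). The 14 ARC neuron markers had a summed level of 1137, 1816 and 1272 CPM on NCD and 1282, 1253 and 1445 CPM on HFD. Of them 10 were higher and 4 lower, with a median of 0.17, and without HFD3 4 were higher and 10 lower, with a median of -0.11.

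The pars tuberalis and pituitary list, of which 5 of 10 genes were tested, had a summed level of 29.8, 11.3 and 36.1 CPM on NCD and 26.2, 20.8 and 67.7 CPM on HFD. Cga led it at 16.9 CPM, with a log2 fold change of 1.36 (SE 0.54, edgeR adjusted p = 0.999) that was 0.43 without HFD3, and Gh and Prl were at 0 in all 6 libraries. The 10 astrocyte markers, led by Aldoc and Slc1a2 at 1318 and 891 CPM, had a median of 0.01, which was 0.18 without NCD2 and -0.10 without NCD3. Gfap was the only one of them with an unadjusted edgeR p under 0.05, where 2.3% of all genes had one.

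The part that microglia, tanycytes, ARC neurons, the edge of the dissection or library depth had in the values of Socs3 and Lepr was not tested.

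**Figure D5:**
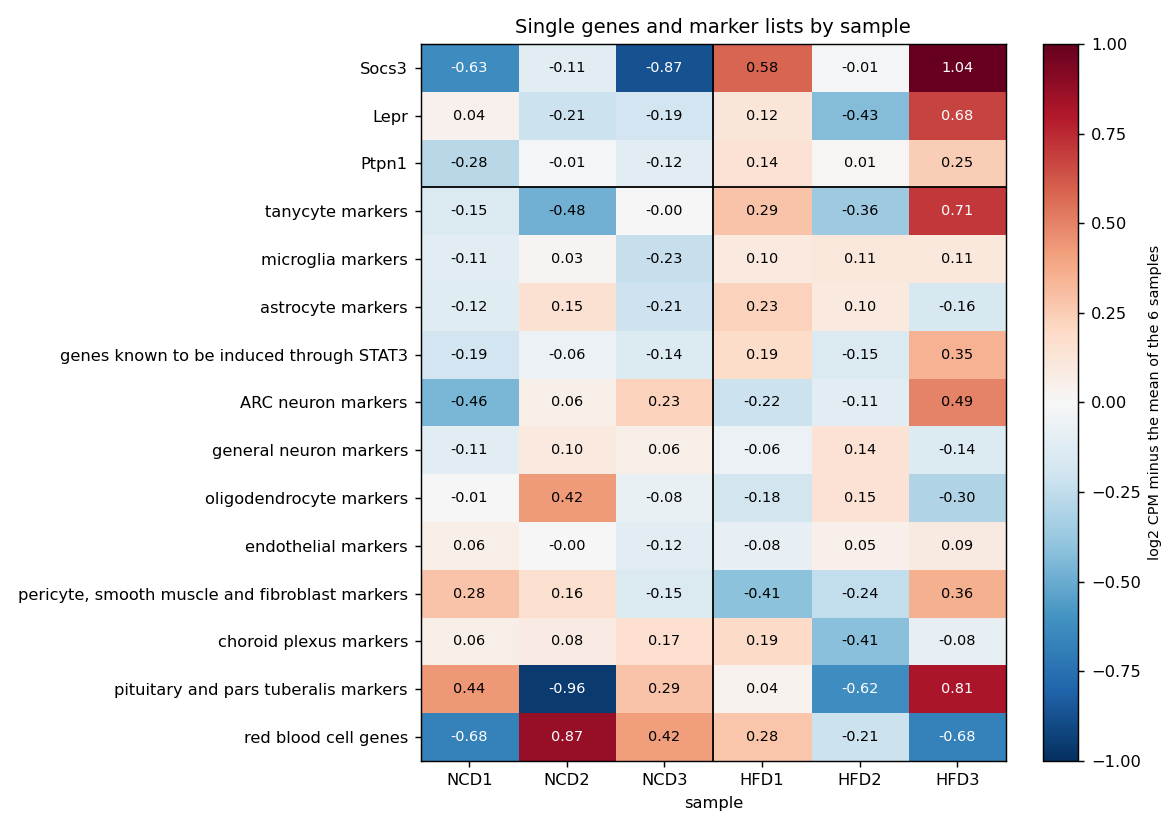
Log2 CPM minus the mean of the 6 samples, for 3 single genes above the line and for the mean over each list below it. HFD3 is the highest sample for Socs3 (1.04), Lepr (0.68) and the tanycyte list (0.71), and microglia markers lie at 0.10 to 0.11 in the HFD samples and at -0.23 to 0.03 in the NCD samples.

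Markers of other cell types had medians near or below 0. General neuron markers, led by Snap25 at 1150 CPM and Map2 at 928 CPM, had a median of -0.015 over 10 genes. Oligodendrocyte markers, led by Mbp at 1737 CPM, had a median of -0.25, with 2 higher and 8 lower, and without NCD2 a median of -0.019, with 5 higher and 5 lower. Endothelial markers, led by Slc2a1 and Flt1 at 132 and 47.3 CPM, had a median of -0.03 and held genes of both directions, Ly6c1 with a log2 fold change of 0.81 (SE 0.23) and Cldn5 with -0.48 (SE 0.21). Mural and fibroblast markers, led by Rgs5 and Vtn at 131 and 69.1 CPM, had a median of -0.06 that was -0.46 without HFD3, with 5 of 12 then lower at an unadjusted edgeR p under 0.05, where 1.94% of all genes were under it in either direction. The contractile genes Acta2 and Tagln had -0.83 (SE 0.28) and -1.05 (SE 0.39). Each of these 4 genes had an unadjusted edgeR p under 0.05, where 2.3% of all genes did, and an adjusted p = 0.999. The unadjusted p was not under 0.05 in 4 of 15 alternatives for Cldn5 and for Tagln and in 1 for Acta2. Choroid plexus markers had a median of -0.16 over 8 genes and 0.06 without HFD2, with Prlr, also an ARC gene, at 112 CPM and Clic6 at 25.7 CPM. Markers of the neighbouring ventromedial and dorsomedial nuclei, led by Adcyap1 and Fezf1 at 168 and 67.6 CPM, had a median of 0.03 over 8 genes. The 5 red blood cell genes, led by Hba-a2 and Hbb-bs at 568 and 480 CPM, had a median of -0.50, which was -0.14 without NCD2 and -0.86 without NCD1, and a summed level of 781, 2485 and 1964 CPM on NCD and 1685, 1155 and 823 CPM on HFD.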

How the data were processed

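RNA from laser-dissected ARC tissue of male mice (3 NCD and 3 HFD samples) was enriched with oligo(dT). The authors cleaned the reads, compared them with ribosomal sequences in bowtie2, aligned them with HISAT2 and quantified genes with StringTie and RSEM. Versions and the use of strand are not given in the sources used here, and the submitters' processing notes name the build mm10. The deposited table holds raw read counts per gene and sample, which were tested here, and FPKM computed by the authors, which were used for levels per length and in 2 alternatives. The authors' mean FPKM per group served only to check which columns belong to which diet. Their fold changes, p-values and false discovery rates were not used.

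Identifiers were matched to GENCODE M21 (GRCm38), which named 22267 of 22322 genes and left 55 without a symbol. filterByExpr kept 14188 genes. Counts were scaled by TMM and tested with edgeR 4.0.16 (R 4.3.3) by the quasi-likelihood method, with the diet as the only term and Benjamini-Hochberg adjustment over all genes tested. CPM values are TMM-scaled, and log2 CPM for likeness and list profiles used a prior count of 2. Fold changes in FPKM used limma 3.58.1 on log2(FPKM + 1) or log2(FPKM + 0.1), after dropping genes whose average FPKM was under 0.5. DESeq2 1.42.0, other scalings and filters, a term for library depth, a replicate block and leaving out each sample were the other alternatives. Single values were compared by two-sided exact permutation tests over samples. The fit was tested on simulated data drawn for the 14188 genes from the means of these libraries. The main edgeR fit found 28 of the 100 genes given a log2 fold change of 1, and 95 of the 100 given 2. With the term for library depth it found 15 and 92. Most changes near the size of that in Socs3 were thus missed, so a gene that did not pass may still differ.

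The 10 genes and the 19 other lists were chosen with earlier results of these data known. Outside the 10 genes, those named are the genes of each list with an unadjusted p under 0.05, the 2 most abundant of each list and the 5 most correlated with Socs3 and with Lepr. Some genes that this rule names are not reported here. Leprot, Kiss1, the other SOCS, Agrp and Npy, the microglial receptors and the ligands and markers too low to test were named in addition, with their values known. Promoter sequence is from RefSeq on GRCm38.p6, which gave windows for 9 of the 10 genes.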

Additional observations from a re-analysis of the deposited data

How the results depend on the processing

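Socs3 was higher on HFD in all 15 alternatives, with log2 fold changes of 0.76 (log2(FPKM + 1)) to 1.31 and adjusted p-values of 0.608 to 0.9999, and its unadjusted p was under 0.05 in 14. Leaving out single samples gave 0.81 to 1.31, the lowest without HFD3. Its replicate block value was 1.05 (edgeR adjusted p = 0.995). Deviations of same-numbered samples correlated at -0.01, 0.11 and 0.37, which shows no clear pairing by number but cannot exclude one. Kiss1 was at 0 counts in both samples numbered 1. With that block 17 genes instead of 8 had an adjusted p under 0.05. That count was 19 in DESeq2, 15 without a filter, 5 in both FPKM fits, 15 with the library total as a term, and 1 to 16 when single samples were left out (1 without HFD1, HFD2 or NCD2, 4 without HFD3 and 16 without NCD3). The count past the study's threshold, 270, was 427 without a filter, 179 with a minimum mean count of 50, and 195 to 982 with single samples left out, the highest without NCD3 and 606 without HFD2. The number of the 10 genes with p under 0.05 was 2 with the library total as a term, Socs3 and Stat3, where 3.15% of all genes were, and 0 to 1 with single samples left out, where 1.36% to 8.13% were.

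Small fold changes turned direction. With the library total as a term, Jak2 was -0.13, Stat5b 0.019, Sh2b1 0.027 and Il6st 0.12, and Sh2b1 was 0.011 and 0.012 in the FPKM fits with pseudocounts of 1 and 0.1. With single samples left out, Lepr ranged from -0.026 to 0.52, Jak2 from -0.13 to 0.18, Stat3 from -0.036 to 0.44, Stat5a from -0.37 to 0.14, Stat5b from -0.42 to 0.076, Sh2b1 from -0.12 to 0.023 and Il6st from -0.36 to 0.13. The causes were not tested. Over 28 named genes other than Socs3, 341 of 422 values kept direction and side of an unadjusted p of 0.05, 64 lost a p under it, 1 gained it and 16 turned. Among list medians, that of gp130 ligands and receptors was -0.32, that of the pituitary list -0.58 and that of the mural list -0.46 without HFD3. Socs3 rests on 22 to 73 counts per sample.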

Other observations

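Il6st differed between its counts and its FPKM. The number of reads per unit of FPKM, which reflects the transcript length that the authors' quantification assigned to a gene, was compared between samples after dividing by each sample's median over genes and by the gene's median over samples. For Il6st it was 0.680 in NCD1, 0.973 in NCD2, 1.09 in NCD3, 0.995 in HFD1, 1.01 in HFD2 and 1.24 in HFD3, so the highest was 1.83 times the lowest. Among 12124 genes with at least 20 counts and an FPKM of 0.5 in every sample the median of this ratio was 1.06, and 9.14% of genes were above 1.5. For Socs3 and Ptpn1 the ratio was 1.01. Lepr had 1.04, 1.04 and 1.10 on NCD and 0.951, 0.907 and 0.956 on HFD, a highest value 1.21 times the lowest, and 24.95% of genes had a larger ratio. The difference between the diets in this measure was not tested. The annotation lists 9 protein-coding transcripts for Il6st, 4 for Lepr and 1 each for Socs3 and Ptpn1. The gene counts hold no values per transcript.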
